A study of Mus musculus with 6 samples.

Results

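Fc receptors are the cell-surface proteins that let leukocytes bind the constant part of antibodies. The 8 Fc receptor genes described here were chosen by name: Fcgr1, Fcgr3, Fcgr4, Fcgr2b, Fcer1a, Ms4a2, Fcer1g and Fcgrt. They were 8 of the 55487 genes in the table, and all 8 were among the 18766 genes whose mean reached the minimum for testing. RNA-seq was done on 6 libraries of cultured mouse bone marrow cells that had been selected for cKit, a receptor of haematopoietic stem and progenitor cells. A lentivirus overexpressed MLLT3 in them, in its wild type form in 3 libraries (WT) or carrying K63E and K67E in the other 3 (DM). MLLT3 is an elongation factor subunit whose YEATS domain reads acylated histones, and the comparison asks what the substitutions in that domain change. Cells of both groups were sorted after transduction and spent 8 days in methylcellulose with 4-hydroxytamoxifen at 200 nM, which was added to delete the endogenous Mllt3 gene, so that no library comes from cells without this treatment. The medium also held mFlt3L at 10 ng/mL and mSCF, hTPO, mIL-3, mGMCSF, hEPO, mIL-11 and mIL-6 at 20 ng/mL each, with gentamycin. The Cre driver, the age of the mice and whether replicates came from separate mice are not given in the sources used here, so p-values measure the spread between these libraries, which may be technical.

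The IgG receptors bind antigen coated with IgG. Fcgr1, Fcgr3 and Fcgr4 encode activating receptors, which have no signalling motif of their own in mice and rely on the gamma chain encoded by Fcer1g, while Fcgr2b encodes the inhibitory receptor that carries its own inhibitory motif. The high-affinity IgE receptor of mast cells and basophils is built from an alpha chain that binds IgE (Fcer1a), a beta chain that amplifies the signal (Ms4a2) and the same gamma chain. Fcgrt encodes the alpha chain of the neonatal Fc receptor, which pairs with beta-2-microglobulin and protects IgG from breakdown inside cells.

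Expression is given as rlog, a regularized log2 value that corrects for library size and draws low genes toward their mean, which understates their changes. With no counts in the table, sequencing depth is unknown. The median over the tested genes lay between 8.03 and 8.11 in the 6 libraries. Mllt3, supplied by the vector and targeted in the genome, was present in every library, at 12.87, 12.6 and 12.44 in WT and 12.44, 12.03 and 11.99 in DM. Called lower in DM, this transcript had a change of -0.48 (SE 0.137, limma adjusted p 0.0448). That call was lost in 6 of 12 alternative settings. The values do not separate the 2 sources of the transcript. Whether its lower level in DM bears on the changes of other genes was not tested.

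Fcer1g and Fcgr3 were the Fc receptor genes that rose in DM, by 1.34-fold and 1.3-fold. The remaining 6 did not pass the test, although the DM mean was above the WT mean for all 8. Quantile normalization put the means of Fcer1a and Ms4a2 slightly lower in DM. With limma and Benjamini-Hochberg adjustment over all tested genes, 2 of 8 genes (25%) had an adjusted p under 0.05, both higher in DM, against 13.9% of the 18766 genes tested, or 9.2% called higher and 4.71% called lower. WT and DM values did not overlap for 2 of the 8 genes (25%), against 35.8% of all tested genes (21.5% higher and 14.3% lower in DM). The share of called genes was thus not far from the background and the share without overlap was below it, so nothing is read from these counts about Fc receptor genes as a group. The median change of the 8 genes was 0.21 on the log2 scale, against 0.01 over all tested genes. High genes as a whole lay a little higher in DM: the 1585 genes with a mean rlog of at least 12, a level that 5 of these 8 genes reached, had a median change of 0.13, and of -0.01 after quantile normalization.

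**Figure D1:**
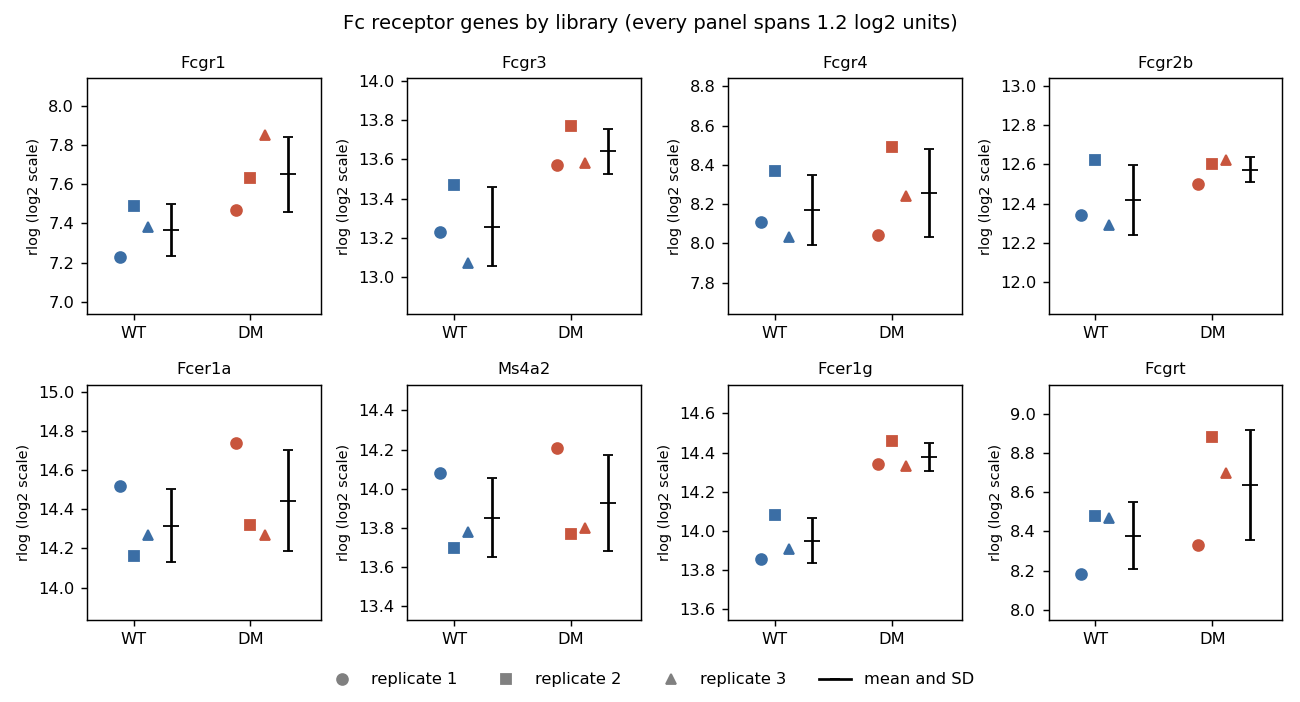
Each panel plots the rlog value (log2 scale) of 1 Fc receptor gene in the 3 WT and 3 DM libraries, with marker shape for the replicate number and a black bar for mean and SD. DM lies wholly above WT for Fcgr3 and Fcer1g, while Fcer1a and Ms4a2 are highest in replicate 1 of both groups.

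The shared gamma chain showed the clearest difference. Fcer1g (ENSMUSG00000058715.11; chromosome 1, 171229572 to 171234365, minus strand, on GRCm38 as annotated by GENCODE M21) had rlog values, in replicate order, of 13.86, 14.08 and 13.91 in WT against 14.34, 14.46 and 14.33 in DM. Every DM library was above every WT library, and the gap between the groups was wider than the spread inside either. Its mean went from 13.95 ± 0.117 to 14.37 ± 0.0741 (SD, n = 3 each), a difference of 0.42 (SE 0.0879, 95% interval 0.23 to 0.62, limma adjusted p 0.0128). This is a modest change in this comparison, since 717 genes were called higher with a larger one. The change was 0.38 without WT replicate 1 (limma adjusted p 0.067) and 0.38 without DM replicate 2 (0.0632), and in both fits the call was lost. After quantile normalization the change was 0.27, with an adjusted p of 0.0159.

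Among the activating IgG receptors, Fcgr3 rose and the other two did not pass the test. Fcgr3 (ENSMUSG00000059498.13; chromosome 1, 171051174 to 171064935, minus strand), which encodes the low-affinity receptor found on most myeloid cells, stood at 13.23, 13.47 and 13.07 in WT and at 13.57, 13.77 and 13.58 in DM. The groups were separate, but the gap between WT replicate 2 and the lowest DM library was smaller than the WT SD. The change was 0.38 (SE 0.108, 95% interval 0.14 to 0.62, limma adjusted p 0.0437), from 13.26 ± 0.199 to 13.64 ± 0.114 (SD, n = 3 each). This call was lost in 7 of 12 alternatives. It was lost without WT replicate 1 (0.37, adjusted p 0.13), WT replicate 3 (0.29, 0.106), DM replicate 1 (0.42, 0.0693), DM replicate 2 (0.32, 0.162) or DM replicate 3 (0.41, 0.0928), after quantile normalization (0.2, 0.101) and with no filter on the mean (0.38, 0.058).

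Fcgr1 and Fcgr4 were far lower in all libraries. Fcgr1 (ENSMUSG00000015947.10; chromosome 3, 96282909 to 96293969, minus strand), the high-affinity IgG receptor of monocytes and macrophages, had rlog values of 7.23, 7.49 and 7.38 in WT against 7.47, 7.63 and 7.85 in DM. The highest WT library stood just above the lowest DM library. Its change was 0.28 (SE 0.106, 95% interval 0.04 to 0.52), with an unadjusted p of 0.0245 and a limma adjusted p of 0.113. Fcgr4 (ENSMUSG00000059089.4; chromosome 1, 171018920 to 171029761, plus strand), a receptor for IgG2 subclasses, was at 8.11, 8.37 and 8.03 in WT and at 8.04, 8.49 and 8.24 in DM, and the groups overlapped throughout. Its change was 0.09 (SE 0.123, 95% interval -0.19 to 0.36, limma adjusted p 0.666), and it was -0.03 without DM replicate 2.

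The inhibitory receptor gene Fcgr2b (ENSMUSG00000026656.15; chromosome 1, 170958617 to 170976547, minus strand) had rlog values of 12.34, 12.62 and 12.29 in WT against 12.5, 12.6 and 12.62 in DM. WT replicate 2 was level with the DM libraries and the other two WT libraries lay below them. The change was 0.16 (SE 0.0943, 95% interval -0.05 to 0.37, limma adjusted p 0.287), and without WT replicate 2 it was 0.26 with an adjusted p of 0.0368, past the threshold.

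Fcgr2b, Fcgr4 and Fcgr3 lie in one region of chromosome 1, and Fcgr2b and Fcgr3 share coding sequence, which bears on how firmly their reads can be told apart. Of the 28 pairs among the 8 genes, this was the 1 pair whose GENCODE M21 transcripts held any identical stretch of 50 bases. Stretches of 50 bases found in both made up 9.58% of those of Fcgr3 and 2.92% of those of Fcgr2b, and at 100 bases they made up 2.54% and 0.753%. The longest identical run is shown because reads inside it fit both genes equally well. It is 129 bases long, all coding, and crosses 1 exon junction in each gene, at chr1:171054167-171057792 in Fcgr3 and chr1:170966674-170968081 in Fcgr2b (GRCm38, minus strand, intron included in the span).
Fcgr3 and Fcgr2b shared run: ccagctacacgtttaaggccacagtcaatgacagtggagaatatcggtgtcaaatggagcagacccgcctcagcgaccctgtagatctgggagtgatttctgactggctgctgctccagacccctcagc
How such reads were counted is not given in the sources used here, so the values of this pair are uncertain to that extent. The annotation also places the antisense gene Gm38204 on the strand opposite Fcgr2b (mean rlog 2.98 in WT and 2.93 in DM) and Gm45669 opposite Fcgrt (0.92 and 0.9), and both were far below the receptor genes.

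The chains that make up the IgE receptor with Fcer1g did not pass the test. Fcer1a (ENSMUSG00000005339.10; chromosome 1, 173221284 to 173227214, minus strand) had rlog values of 14.52, 14.16 and 14.27 in WT against 14.74, 14.32 and 14.27 in DM. Ms4a2 (ENSMUSG00000024680.12; chromosome 19, 11615523 to 11623719, minus strand) was at 14.08, 13.7 and 13.78 in WT and at 14.21, 13.77 and 13.8 in DM. Replicate 1 was the highest library of its group for both genes, and the groups overlapped. The change of Fcer1a was 0.12 (SE 0.139, 95% interval -0.19 to 0.44, limma adjusted p 0.581). The change of Ms4a2 was 0.08 (SE 0.135, 95% interval -0.22 to 0.38, limma adjusted p 0.736). The interval of Fcer1a reaches past the 0.42 of Fcer1g and that of Ms4a2 ends just short of it, so these data do not separate no change from a rise near that size. The sign of both changes depended on the setting, at -0.02 and -0.08 after quantile normalization and -0.03 and -0.06 without DM replicate 1.

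Fcgrt (ENSMUSG00000003420.8; chromosome 7, 45092990 to 45103851, minus strand), the neonatal Fc receptor gene, had rlog values of 8.18, 8.48 and 8.47 in WT against 8.33, 8.88 and 8.7 in DM. DM replicate 1 fell inside the WT range and the other two DM libraries lay above it. The change was 0.26 (SE 0.136, 95% interval -0.04 to 0.56, limma adjusted p 0.23), and without DM replicate 1 it was 0.41 with an adjusted p of 0.0446. Its partner B2m, which also serves MHC class I and was named after its values were seen, went from 15.03, 15.29 and 14.81 in WT to 15.49, 15.69 and 15.46 in DM. B2m changed by 0.5 (SE 0.127, limma adjusted p 0.0282), a call lost when any 1 library other than WT replicate 2 was left out (adjusted p from 0.0528 without DM replicate 1 to 0.11 without DM replicate 2).

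**Figure D2:**
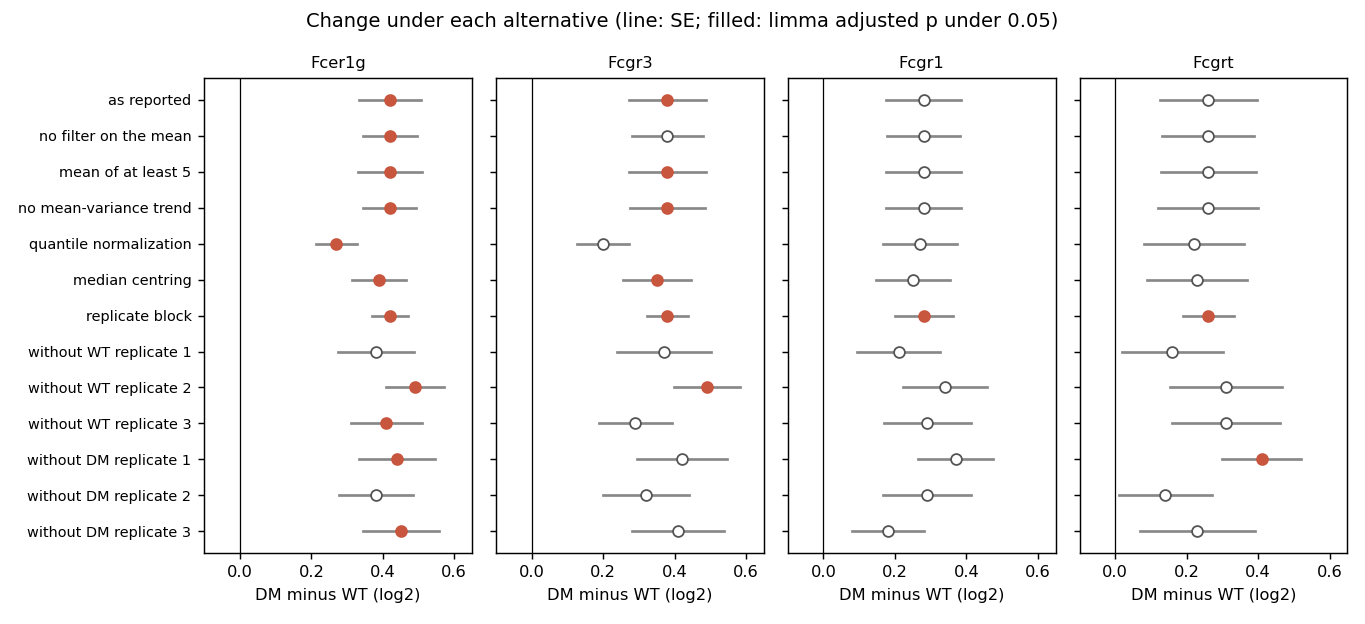
The change from WT to DM (log2 scale, x axis) of 4 Fc receptor genes is plotted for the reported fit and each of 12 alternatives, with the SE as a line and a filled point where the limma adjusted p is under 0.05. Fcer1g stays between 0.27 and 0.49 and keeps its call in 10 of 12, Fcgr3 keeps it in 5 of 12, Fcgr1 gains a call in 1 and Fcgrt in 2.

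Levels were compared between genes per kilobase of annotated exon, as rlog minus the log2 of the exon length. In WT the order was Fcer1a (14.32), Fcer1g (14.14), Fcgr3 (12.46), Ms4a2 (12.36), Fcgr2b (9.89), Fcgr4 (7.84), Fcgrt (7.3) and Fcgr1 (6). In DM, Fcer1g (14.56) and Fcer1a (14.44) changed places. This pair did not differ beyond its spread, since Fcer1a was the higher in 3 of 6 libraries, and Fcgr3 was above Ms4a2 in 4 of 6. Every other neighbour in the order kept its place in 6 of 6 libraries. The exon length counts all annotated transcripts, so a gene with long alternative forms such as Fcgr2b, with 5790 bases, is placed lower than its main form would be.

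Differences between pairs of genes were also compared inside the same library. The activating Fcgr3 exceeded the inhibitory Fcgr2b by 0.9, 0.85 and 0.78 rlog units in WT and by 1.07, 1.17 and 0.95 in DM. The groups did not overlap, and the difference widened by 0.22 from a mean of 0.84 ± 0.0557 to 1.06 ± 0.11 (SD, n = 3). Fcer1g exceeded Fcgr2b by 1.52, 1.46 and 1.62 in WT and by 1.83, 1.86 and 1.7 in DM, also without overlap. Fcgr4 minus Fcgr3 was -5.13, -5.1 and -5.04 in WT and -5.53, -5.28 and -5.34 in DM, again without overlap. For each of these 3 pairs the two-sided exact permutation p was 0.1, the smallest that 3 against 3 libraries allows, and 0.3 when adjusted over the 9 pairs compared, which were chosen after the values were seen. No pair can therefore pass a threshold of 0.05.

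Distances among the chains that assemble together overlapped between the groups. Fcer1g exceeded Fcgr3 by 0.62, 0.61 and 0.84 in WT and 0.77, 0.69 and 0.75 in DM (exact permutation p 0.7). Fcer1a exceeded Ms4a2 by 0.45 to 0.49 in WT and by 0.46 to 0.55 in DM (exact permutation p 0.2), a narrow range over 6 libraries for genes that themselves spread by more. Fcer1g minus Fcer1a spread widely in both groups, at -0.67, -0.08 and -0.37 in WT and -0.41, 0.14 and 0.06 in DM, with overlap (exact permutation p 0.3).

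**Figure D3:**
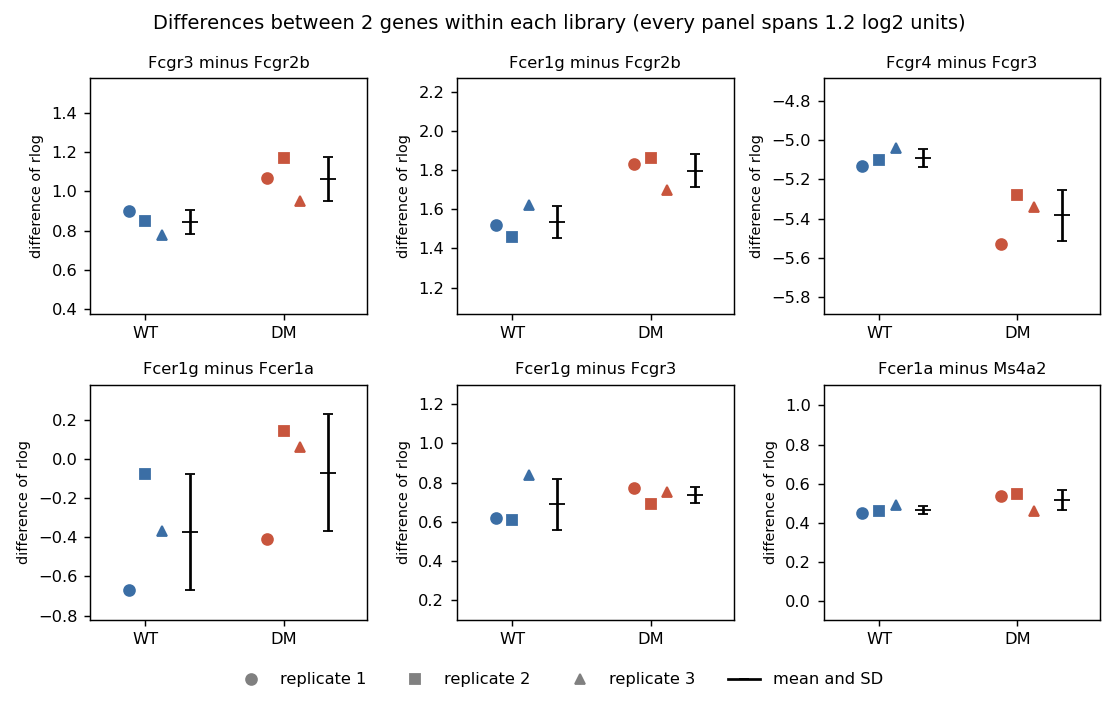
Each panel plots the difference in rlog between 2 genes inside each library (y axis, log2 scale), with marker shape for the replicate number and a black bar for mean and SD. Fcgr3 minus Fcgr2b and Fcer1g minus Fcgr2b are higher in all 3 DM libraries, while Fcer1a minus Ms4a2 stays between 0.45 and 0.55 in all 6.

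The gamma chain also serves other receptors, and 3 lectin receptors and Pira2 among them rose in DM. They belong to a list of 10 genes that holds receptors that pair with Fcer1g, its sister adaptors, and B2m as the partner of Fcgrt. Of its 8 tested genes 6 were called, all higher, against 13.9% of all tested genes called, with a median change of 0.56 against 0.01. The list was chosen with earlier results of these data known, so its share of called genes is no independent support. It was not tested against the Fc receptor genes. Clec4n, which encodes Dectin-2, a receptor for fungal mannans, had rlog values of 14.1, 14.48 and 14.05 in WT against 15.01, 15.33 and 15.08 in DM. It rose by 0.93 (SE 0.131, limma adjusted p 0.00341). Its neighbours in the same lectin cluster, Clec4d (0.85, limma adjusted p 0.00145) and Clec4e (0.72, 0.0101), which sense microbial glycolipids, also rose, and the groups did not overlap for any of them. Pira2, of a family of near-identical immunoglobulin-like receptors whose counts are uncertain, changed by 0.61 (limma adjusted p 0.00829). These 4 genes kept their calls in all 12 alternatives. Tyrobp, the sister adaptor of Fcer1g, named after its values were seen, changed by 0.48 (limma adjusted p 0.0149), and lost the call without WT replicate 1 (0.42, 0.069) or DM replicate 2 (0.39, 0.0634). Gp6, the collagen receptor of platelets, which also uses the gamma chain, did not pass the test (0.19, limma adjusted p 0.43), and its groups overlapped. Oscar, at 2.29 in WT and 2.28 in DM, and Ncr1, at 2.11 and 2.05, were below the minimum mean. Cd247, the adaptor that can replace the gamma chain in lymphocytes, changed by 0.05 and was low, at 4.42 in WT and 4.47 in DM.

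Downstream of the receptors, Src family kinases phosphorylate the gamma chain, Syk binds it, and the phosphatase SHIP1 (Inpp5d), recruited by Fcgr2b, opposes the signal. Of 19 signalling genes, all tested, 3 were called, all higher, and 18 had a higher mean in DM, with a median change of 0.2. This share of called genes is close to the 13.9% called over all tested genes, so nothing is read from it about the list. Syk changed by 0.45 (SE 0.0988, limma adjusted p 0.0162), from 13.55, 13.87 and 13.6 in WT to 14.09, 14.21 and 14.07 in DM. Lyn, a Src family kinase, changed by 0.34 (limma adjusted p 0.0196), and Inpp5d by 0.3 (0.0385). Inpp5d lost its call in 6 of 12 alternatives. Without WT replicate 1 or DM replicate 2 no gene of this list was called by limma (6 and 7 had an unadjusted p under 0.05), without DM replicate 3 only 1 was, and without WT replicate 2 the number was 5. After quantile normalization 2 were called and the median was 0.06, and without a mean-variance trend 5 were called.

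**Figure D4:**
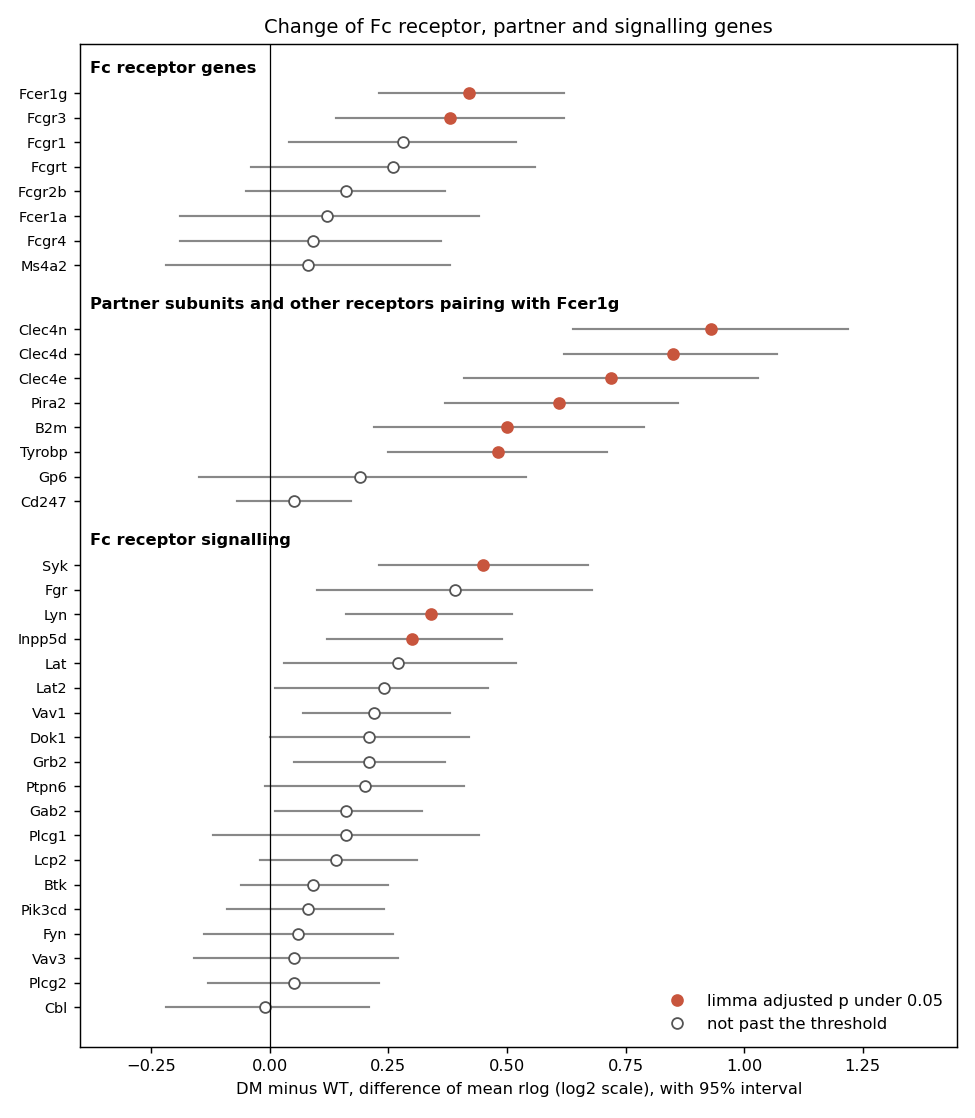
The change from WT to DM (x axis, difference of mean rlog on the log2 scale) is plotted with its 95% interval for the 8 Fc receptor genes, 8 tested partner genes and 19 signalling genes, and filled points have a limma adjusted p under 0.05. The lectin genes Clec4n, Clec4d and Clec4e reach 0.72 to 0.93, beyond Fcer1g at 0.42 and Syk at 0.45.

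Other proteins that bind the Fc part of antibodies were mostly near the floor of the table. Of 10 such genes 5 reached the minimum mean of 3, and none was called by limma (1 had an unadjusted p under 0.05). That gene was Trim21, a cytosolic receptor for antibody on viruses, named after its values were seen, with values from 8.44 to 8.49 in WT and from 8.56 to 8.69 in DM (0.18, limma adjusted p 0.108). The B cell IgE receptor Fcer2a, at 2.44 in WT and 2.39 in DM, and the IgM receptor Fcmr, at 2.23 and 2.16, were below the minimum. Without WT replicate 2, 1 gene of this list was called, Pigr, the transport receptor for IgA, lower in DM (mean rlog 3.22 in WT and 3.12 in DM with all libraries).

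Markers of the cell types that carry Fc receptors were read beside these results. Of 10 monocyte and macrophage markers, 9 were tested and all 9 were called higher in DM, against 9.2% of all tested genes called higher. Their median change was 0.64, against 0.01 over all tested genes. The marker list was chosen with earlier results of these data known, so its count is no independent support. The changes were 0.96 for Ctss, a lysosomal protease (limma adjusted p 0.0115), 0.94 for Cd68 (0.00777), 0.86 for Lyz2 (0.0176) and 0.73 for Csf1r, the receptor for the macrophage growth factor (0.00415). Lyz2 lost its call without WT replicate 1 (adjusted p 0.0704), WT replicate 3 (0.0966) or DM replicate 2 (0.0656), and 6 of the 9 markers were called without WT replicate 1 or DM replicate 2. Their summed level, on the log2 scale, was 18.15, 18.62 and 17.97 in WT against 18.91, 19.32 and 19.03 in DM, without overlap. In each group it was highest in replicate 2, as were Fcer1g and Fcgr3. Lyz2 made up most of this sum in every library, at 17.81, 18.28 and 17.6 in WT and 18.57, 19 and 18.69 in DM. The summed level thus mainly follows Lyz2. The untested marker was C1qa, at 2.54 in WT and 2.47 in DM, and no marker was listed at 0. Ly6c2 (-1.13, limma adjusted p 0.00361) and Ccr2 (-0.78, 0.00975), which mark inflammatory monocytes, stand outside this list and were named after their values were seen, were lower in DM. The part of these markers in the changes of Fcer1g and Fcgr3 was not tested. In bulk RNA, more cells of a type and more RNA per cell cannot be told apart.

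Mast cell and basophil markers went in both directions. Of 10 markers, all tested, 1 was called higher and 1 lower, a share near the 13.9% of all tested genes, and 4 had an unadjusted p under 0.05. The median change was 0.02, over 5 markers with a higher and 5 with a lower mean in DM. Mitf, a transcription factor of mast cells, rose by 0.52 (limma adjusted p 0.00293), and Hdc, which makes histamine, fell (-0.62, 0.0457), a call lost in 7 of 12 alternatives. The basophil protease genes Mcpt8 (-0.54, limma adjusted p 0.122) and Prss34 (-0.58, 0.0986), named after their values were seen, had lower means in DM and did not pass the test. The number called was 4 without WT replicate 1, with 1 higher and 3 lower, and 1 without WT replicate 2, WT replicate 3, DM replicate 2 or DM replicate 3. The summed level was 19.23, 18.91 and 18.87 in WT and 19.37, 18.88 and 19.02 in DM, highest in replicate 1 of each group, as were Fcer1a and Ms4a2. The protease genes Cpa3, Tpsb2 and Cma1 had the highest values of this list in every library, so the summed level mainly follows them. The part of these markers in the values of Fcer1a and Ms4a2 was not tested. Kit itself stood at 14.39 in WT and 14.6 in DM, so that the gene used to select the cells before culture was still high at harvest. No marker of this list was listed at 0.

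The genes whose values followed Fcer1g most closely over the 6 libraries were Lyn (Pearson r 0.999), Bri3 (0.999), Shisa5 (0.998), Slc11a1 (0.998) and Shtn1 (0.998). They were the highest of 2362 tested genes with a mean of at least 6 and an SD of at least 0.2. These correlations are a description over 6 points that share the libraries and the 2 groups, and all 5 genes were themselves called higher in DM, of which Bri3 lost its call in 2 of 12 alternatives and Lyn in 3. Slc11a1, a metal transporter of phagosomes, had the largest change of the 5, at 0.96 (limma adjusted p 0.00271), and Lyn the smallest, at 0.34.

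The start regions of these genes are shown as a description of sequence. Fcer1g and Fcgr3 were called higher in DM while Fcer1a and Ms4a2 did not pass the test, but a difference between their changes was not established. Fcer1g minus Fcer1a and Fcer1g minus Ms4a2 overlapped between the groups (exact permutation p 0.3 and 0.2). Whether any motif bears on the changes was not tested. Windows of 250 bases before the first listed RefSeq start (GRCm38.p6) were found for all 8 genes. Fcgr3 had 2 listed starts, and the window of its other start was not searched, while every other gene had 1. The windows were searched on both strands for GAGGAA, a core sequence bound by the myeloid factor PU.1, and for AGATAA, bound by GATA factors of mast cells. The motifs do not overlap each other. The last 100 bases before the start are printed 5′ to 3′ on the strand of the gene, with matches to either motif in capitals (TTCCTC and TTATCT are the same motifs on the opposite strand).
Fcgr3, chr1:171059404-171059503, minus strand: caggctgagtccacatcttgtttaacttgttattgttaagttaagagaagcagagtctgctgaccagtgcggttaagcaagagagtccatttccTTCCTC
Fcgr4, chr1:171018826-171018925, plus strand: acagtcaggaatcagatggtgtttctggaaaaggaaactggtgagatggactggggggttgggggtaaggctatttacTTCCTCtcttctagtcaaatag
Fcgr1, chr3:96293970-96294069, minus strand: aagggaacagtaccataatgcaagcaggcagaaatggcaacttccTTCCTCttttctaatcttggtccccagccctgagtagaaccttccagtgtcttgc
Fcer1g, chr1:171234350-171234449, minus strand: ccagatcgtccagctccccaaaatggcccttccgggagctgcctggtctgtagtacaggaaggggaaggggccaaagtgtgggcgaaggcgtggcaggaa
Fcer1a, chr1:173227230-173227329, minus strand: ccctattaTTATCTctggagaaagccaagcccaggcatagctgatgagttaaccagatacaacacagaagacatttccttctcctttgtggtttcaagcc
Ms4a2, chr19:11623720-11623819, minus strand: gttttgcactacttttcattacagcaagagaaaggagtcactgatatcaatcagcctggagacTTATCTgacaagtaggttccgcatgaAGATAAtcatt
GAGGAA was found in 4 of the 8 windows, against 23.1% of the windows of 27025 genes. In the 3 activating IgG receptor genes it lay on the opposite strand, beginning 6 bases before the start in Fcgr3, 22 in Fcgr4 and 55 in Fcgr1, and in Fcer1a it lay 216 bases before the start, outside the stretch shown. AGATAA was found in 2 of the 8 windows, Fcer1a and Ms4a2, against 10.3% of all windows, with 3 matches in Ms4a2, of which the third, beginning 224 bases before the start, is outside the stretch shown. Fcer1g, which changed most, held neither motif in this window, as did Fcgr2b and Fcgrt. Only these exact letters were searched, so shorter or variant forms of the motifs were not counted. The windows of Fcgr3 and Fcgr2b, placed by RefSeq starts, lie within the spans that GENCODE M21 gives these genes. A match is a description of letters, and nothing was measured here about binding.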

How the data were processed

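The table the authors deposited holds rlog values on the log2 scale, as read from its name and its values. Per the submitters' processing notes, the tools were cutadapt 2.6, STAR 2.7.3 and DESeq2 1.30.0 with the build mm10. The counting tool, use of strand and annotation are not given in the sources used here. The 142699 lines were merged into 55487 genes, since repeated lines were identical. limma 3.58.1 in R 4.3.3 (eBayes with a mean-variance trend, no covariates) compared DM with WT in every gene whose mean reached 3 (18766 genes), with Benjamini-Hochberg adjustment and a threshold of 0.05, and was tested on simulated data. A change is DM minus WT in mean rlog. The identifiers of 98.1% of genes matched GENCODE M21. Named by rule were the 8 genes, up to 4 called members per gene list by size of change, Mllt3, and the 5 genes most correlated with Fcer1g. Other genes were named outside this rule, among them Gp6, Oscar, Ncr1, Cd247, Fcer2a, Fcmr, Pigr, C1qa and Kit. Camp, a neutrophil marker called lower in DM, met the rule and is not described further. One signalling gene is not reported here and was taken out of its list. The members and the lists were chosen with earlier results of these data known. Alternatives were other filters (none, or a mean of at least 5), no trend, quantile normalization, median centring, a replicate block and each library left out. Permutation tests used scipy 1.17.1.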

Additional observations from a re-analysis of the deposited data

How the results depend on the processing

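The number of Fc receptor genes called was 2 as reported, 1 with no filter on the mean, 1 after quantile normalization and 4 with the replicate block. It ran from 0 to 3 with a library left out, and was 0 without WT replicate 1 or DM replicate 2, where 2 and 3 genes had an unadjusted limma p under 0.05. Over all genes, 2611 were called, and from 1119 (without DM replicate 2) to 3475 (without WT replicate 2) with a library left out, with 1185 without WT replicate 1 and 1537 without DM replicate 3. Of these, 66.1% were higher in DM as reported and 51.3% after quantile normalization. Over the gene lists 39 genes were called, and from 24 (without DM replicate 2) to 40 with a library left out. With the replicate block, 3742 genes were called in all, 10 signalling genes were, and Fcgr1 (0.28, adjusted p 0.046) and Fcgrt (0.26, adjusted p 0.037) passed the threshold beside Fcer1g and Fcgr3. The same numbers do not show that libraries were paired, since the correlation of deviations was 0.491 for replicate 1, 0.116 for replicate 2 and 0.0412 for replicate 3, and DM replicate 2 followed WT replicate 3 (0.124) more closely than WT replicate 2. Of the genes named here, none that was called as reported changed direction in any alternative. The direction of the other called genes was not checked across the alternatives. The depth is unknown, so counting error could not be set beside any value.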

Other observations

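Markers of the remaining cell types that the culture could hold gave the following counts, against 13.9% of all tested genes called. These lists, too, were chosen with earlier results of these data known. Of 10 neutrophil markers 9 were called, all lower in DM, led by the granule genes Mpo (-4.23, limma adjusted p 0.000444), Elane (-3.96, 0.000118) and Prtn3 (-3.37, 0.000118), and the summed level was 18.45 to 18.9 in WT and 16.85 to 17.76 in DM. Of 8 eosinophil markers 3 were called, all lower: Epx (-1.46, limma adjusted p 0.000118), Prg3 (-1.29, 0.000118) and Prg2 (-1.16, 0.00381). Of 10 dendritic cell markers 6 were tested, with 3 called higher and 1 lower. The number of these called was 1 without WT replicate 1, DM replicate 2 or DM replicate 3, and 2 without WT replicate 3 or DM replicate 1, after median centring or with no filter on the mean. The highest of them was Itgax, an integrin shared with macrophages, which went from 11.92, 12.58 and 11.66 in WT to 13.05, 13.17 and 12.89 in DM. Irf8 (0.56, limma adjusted p 0.016) and Clec9a (0.23, 0.0499) were also called higher, and Flt3 was called lower (-0.3, 0.0494). The call was lost in 3 of 12 alternatives for Irf8, 8 of 12 for Clec9a and 9 of 11 for Flt3.

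Lymphoid cells, which also carry Fc receptors, left little RNA. Of 8 NK and T cell markers 7 were under the minimum mean of 3, and the 1 tested, Nkg7, fell from 8.92, 8.88 and 8.33 in WT to 7, 6.8 and 6.65 in DM (-1.89, limma adjusted p 0.000155). Of 8 B cell markers 5 were tested, with Cd22 higher (0.75, limma adjusted p 0.00659) and Cd79b lower (-0.27, 0.0166). Cd79b was low, at a mean of 5.11 in WT and 4.84 in DM, and lost its call in 2 of 11 alternatives. Cd22 encodes a lectin with inhibitory motifs like that of Fcgr2b, and its values were 8.29, 8.57 and 8.11 in WT and 9.02, 9.29 and 8.92 in DM. The number of B cell markers called was 3 without WT replicate 2, and 1 without DM replicate 1 or DM replicate 2. None of 7 tested erythroid and megakaryocyte markers was called by limma, and 0 had an unadjusted p under 0.05.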
